A study of Mus musculus with 6 samples.

Results

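CTCF peaks were examined at the genes of 8 proteins that write, guide or remove DNA methylation in embryonic stem cells of the mouse, which are derived from the early embryo and can form every tissue. The genes were Dnmt1, Dnmt3a, Dnmt3b, Dnmt3l, Tet1, Tet2, Tet3 and Uhrf1. A region of the deposited joined peak table was taken when it overlapped one of these gene bodies (GENCODE vM1 on the mouse build mm9) or lay within 30 kb of one. This gave 53 of the 57662 regions, 21 of them in a gene body and 32 in a flank. Choosing regions by position used no measured difference between the genotypes. The joined table itself merges the peak lists of both genotypes, so each region is in it because some library called it. A comparison of calls is therefore not independent of how the regions came to be listed.

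The cells carried an endogenous CTCF fused to EGFP and an auxin-inducible degron, which was degraded with auxin in both groups. In WT_CTCF cells it was replaced by an introduced wild-type CTCF, and in MUT_CTCF cells by an introduced CTCF in which a threonine that can carry the sugar O-GlcNAc was changed to alanine. Immunoprecipitation of chromatin with an antibody to CTCF and sequencing (ChIP-seq) gave 2 libraries per genotype, called WT_CTCF replicates 1 and 2 and MUT_CTCF replicates 1 and 2. Each genotype was grown from picked clones, so genotype and clone cannot be told apart here.

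DNA methylation is the addition of a methyl group to cytosine, mostly where a guanine follows it. Dnmt1 copies existing methylation after replication and is guided there by Uhrf1. Dnmt3a and Dnmt3b place new methylation, with Dnmt3l as a cofactor that lacks catalytic activity, and the Tet enzymes oxidise methylated cytosine on the way to its removal. CTCF, a DNA-binding protein with zinc fingers, stops loop extrusion by cohesin. Methylation of a cytosine within its motif can prevent its binding. Neither methylation nor transcription was measured in these libraries.

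The values per library are peak calls and the peak score. The score stands for the evidence the peak caller gave a peak, and its definition was not given in the sources used here. It is neither a read count nor an amount of bound CTCF, and it can move with sequencing depth, background and the spike-in scaling of the tracks. A lost call or a lower score therefore does not say that less CTCF was bound. Read counts may run in the other direction and were not compared here. From spike-in normalized ChIP-seq, the study reported a global increase in chromatin binding of the mutant CTCF. It also reported more chromatin-bound mutant CTCF in immunoblots and more accessible chromatin at the enhanced peaks. Additional clones of both genotypes were reported to give consistent results, and these are not examined here. The lists held 32712 to 54001 peaks, with a lowest score of 13 in each, and the read depth behind them is unknown here.

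The CTCF motifs of these regions are shown first. Matches to the 13-base core of the CTCF motif were searched on both strands of the reference with at most 1 mismatch. A match was present in 37 of the 53 regions (69.8%), against 60.6% of all 57662 regions. Control intervals of equal width, 5000 bp to either side, held one in 5.66% of cases around the 53 regions and 4.44% around all regions. The 7 matches without a mismatch are printed below because all 7 lay in regions called in all 4 libraries. That was the general pattern, since 83.8% of such matches in the whole table lay in regions called in all 4 libraries. They were present in 13.2% of the 53 regions and 12.7% of all regions. The capitals mark the core, the window is 28 bases long, and the bases are those of mm9 on the strand of the motif.
Dnmt3a, 120.28 kb downstream of the 5′ end, chr12:3926295-3926322, plus strand: aggtggCCACCAGAGGGCAgagttgttc
Dnmt3b, 45.25 kb downstream of the 5′ end, chr2:153520392-153520419, minus strand: tcgcgtCCACCAGGGGGCGctgggtagt
Dnmt3l, 23.08 kb upstream of the 5′ end, chr10:77481638-77481665, plus strand: cggtcgCCACCAGGTGGCGctgtgccct
Dnmt3l, 13.65 kb upstream of the 5′ end, chr10:77491022-77491049, plus strand: aagtggCCACTAGGTGGCActaaaggtc
Dnmt3l, 1.64 kb downstream of the 5′ end, chr10:77506285-77506312, minus strand: cgtgggCCAGCAGGGGGCGccgaggcgc
Tet3, 85.01 kb downstream of the 5′ end, chr6:83306697-83306724, plus strand: aactagCCACTAGGGGGCAgcgtgggcc
Uhrf1, 11.96 kb upstream of the 5′ end, chr17:56430794-56430821, plus strand: atgttgCCACCAGGTGGCGccctgctcg

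A second set shared one form of the core. In 19 of the 53 regions the sequence held the 12-letter string CCAGAAGAGGGC on one of the strands, which matches the core with 1 mismatch and was picked out after the matches had been seen. Of these 19 regions, 8 belonged to Tet1. In 11 of the 37 windows the same 28 bases occurred at least 10 times in the reference, and all 11 held the string. Of these 11 windows 7 belonged to Tet1, 2 to Tet2 and 2 to Uhrf1. Their regions comprised 5 called in both WT_CTCF libraries alone, 4 in a single WT_CTCF library, 1 in 3 libraries and 1 in all 4. The last held the window with the most copies, 3588, and lay 104.81 kb downstream of the 5′ end of Tet1 (not printed). A selection is printed below, core in capitals, because the first 5 lay in regions called in both WT_CTCF and neither MUT_CTCF library. The others show the same form where calls were kept or partly kept.
Tet1, 28.71 kb upstream, chr10:62390636-62390663, plus strand, 412 copies: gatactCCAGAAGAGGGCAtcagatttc
Tet1, 17.86 kb upstream, chr10:62379566-62379593, minus strand, 1034 copies: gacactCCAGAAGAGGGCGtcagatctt
Tet1, 0.47 kb upstream, chr10:62362345-62362372, minus strand, 671 copies: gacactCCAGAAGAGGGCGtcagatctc
Tet1, 1.17 kb downstream, chr10:62360638-62360665, minus strand, 451 copies: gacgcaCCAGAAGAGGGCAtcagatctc
Tet1, 24.04 kb downstream, chr10:62337811-62337838, minus strand, 132 copies: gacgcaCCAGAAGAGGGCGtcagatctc
Tet1, 36.44 kb downstream, chr10:62325376-62325403, minus strand, 1 copy, called in all 4 libraries: tggccaCCAGAAGAGGGCAgcagatctc
Uhrf1, 4.63 kb upstream, chr17:56438194-56438221, plus strand, 487 copies, called in 3 libraries: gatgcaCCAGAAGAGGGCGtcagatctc
Uhrf1, 6.64 kb downstream, chr17:56449366-56449393, plus strand, 1 copy, called in all 4 libraries: aacactCCAGAAGAGGGCGtcagatccc

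Fewer of the 53 regions were called in MUT_CTCF than in WT_CTCF. WT_CTCF replicates 1 and 2 had a peak in 45 and 49 of them, and MUT_CTCF replicates 1 and 2 in 27 and 24. Both MUT_CTCF libraries were below both WT_CTCF libraries. The means were 47.0 ± 2.83 (SD, n = 2) and 25.5 ± 2.12 (SD, n = 2), a difference of -21.5 regions that exceeded the spread between replicates. An exact two-sided permutation test gave p = 0.333, the smallest that 2 libraries against 2 allow. Over all 57662 regions, the 2 WT_CTCF libraries had a peak in 86.3% and 93.4% and the 2 MUT_CTCF libraries in 58.3% and 56.2%, so that fewer calls were found across the whole table as well.

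By pattern of call, 23 of the 53 regions (43.4%) had a peak in all 4 libraries, against 52.6% of all regions. A further 13 (24.5%) had one in both WT_CTCF and neither MUT_CTCF library, against 19.5% of all regions. Another 12 (22.6%) had one in a single WT_CTCF library and no MUT_CTCF library, against 18.8%. The remaining 5 were called in both WT_CTCF and 1 MUT_CTCF library. No region was called in MUT_CTCF alone, and 0.033% of all regions were called in both MUT_CTCF and neither WT_CTCF library. In sum, 25 of the 53 had a WT_CTCF and no MUT_CTCF call, against 38.3% of all regions. Without WT_CTCF replicate 1 or 2, 21 and 17 rather than 13 regions were called in WT_CTCF and not in MUT_CTCF. Without MUT_CTCF replicate 1 or 2, 17 and 14 were. Such counts can only stay or rise, since fewer libraries then set the pattern, and the matching shares of all regions are not given here.

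**Figure D1:**
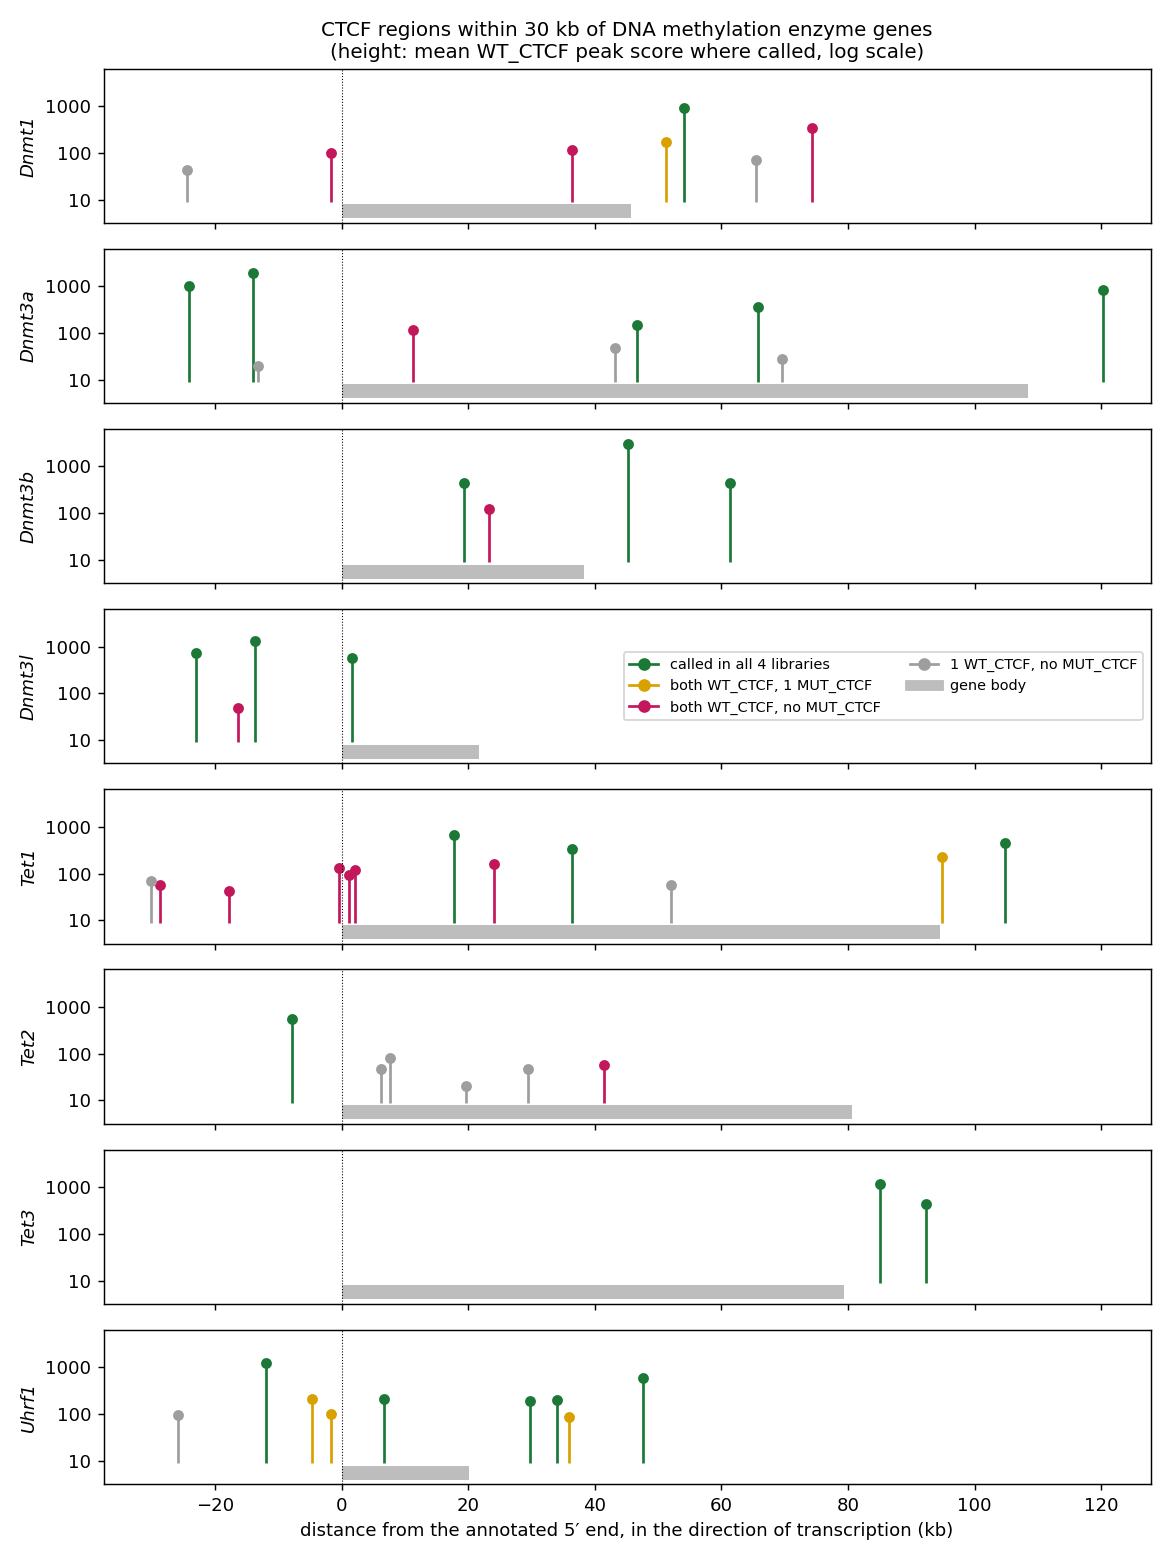
CTCF regions along the 8 genes, 1 panel per gene, by distance of the midpoint from the annotated 5′ end in kb (horizontal) and mean peak score of the WT_CTCF libraries that called the region (vertical, log scale), with colour for the pattern of call and a grey bar for the gene body. The 23 regions called in all 4 libraries include the highest point of every panel, and the 5 regions inside the Tet2 gene body had no MUT_CTCF call.

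Patterns differed in level. The authors' mean, their scaled read count averaged over the 4 libraries, ran from 75 to 775.25 (median 199.75) in the 23 regions called throughout. It ran from 22.75 to 154.0 (median 42.75) in the 13 regions called in both WT_CTCF libraries alone and from 13.5 to 45.5 (median 22.25) in the 12 called in a single WT_CTCF library. The regions lost from the MUT_CTCF lists had lower means. This mean includes the MUT_CTCF libraries and rises with signal, as calls do, so it is not independent of the pattern of call. Over the whole table the medians for the same patterns were 206.5, 47.25 and 25. Inside the gene bodies 7 of 21 regions were called in all 4 libraries, against 16 of 32 in the flanks. Over the whole table the shares were 52.0% within protein-coding genes and 53.1% outside them.

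Dnmt1 (chr9:20711650-20757317, minus strand, ENSMUSG00000004099.8), the maintenance enzyme, had 7 regions, of which 1 was called in all 4 libraries. That region lay 54.06 kb downstream of the 5′ end, beyond the gene, at the 5′ UTR and a coding exon of Eif3g, and held no match to the motif. Its scores were 907 and 861 in WT_CTCF and 614 and 537 in MUT_CTCF. Both MUT_CTCF scores were below both WT_CTCF scores.

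The region nearest the start of Dnmt1, 1.70 kb upstream (chr9:20758858-20759180), scored 72 and 129 in WT_CTCF and was not called in either MUT_CTCF library. Its motif window, gagacaCCAGAAGAGGGCAtcaaatccc, held the 12-letter string and occurred 1 time in the reference. The only region inside the gene, in an intron 36.47 kb from the 5′ end, scored 138 and 90 in WT_CTCF and was likewise absent from both MUT_CTCF lists. A region at the 5′ UTR of Angptl6, 74.34 kb downstream, scored 363 and 321 in WT_CTCF. It had the highest score of the 13 regions called in both WT_CTCF libraries alone.

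Uhrf1 (chr17:56442744-56462909, plus strand, ENSMUSG00000001228.8), which brings Dnmt1 to replicated DNA, had 9 regions, the most per length of the window among the 8 genes. Of these, 5 were called in all 4 libraries and none in both WT_CTCF libraries alone. The strongest lay 11.96 kb upstream, near a start of Plin3, and scored 1251 and 1278 in WT_CTCF and 698 and 785 in MUT_CTCF. It held one of the matches without a mismatch printed above. The region 1.61 kb upstream of the 5′ end scored 70 and 130 in WT_CTCF and 41 in MUT_CTCF replicate 1, with no call in MUT_CTCF replicate 2. An intronic region 6.64 kb downstream scored 216 and 203 in WT_CTCF and 48 and 57 in MUT_CTCF, and its groups did not overlap.

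Dnmt3a (chr12:3806007-3914443, plus strand, ENSMUSG00000020661.9), a de novo methyltransferase, had 9 regions, 5 of them called throughout. The strongest, in intergenic sequence 14.06 kb upstream, scored 1849 and 2040 in WT_CTCF and 882 and 773 in MUT_CTCF. An intronic region 65.83 kb downstream scored 358 and 345 in WT_CTCF against 58 and 91 in MUT_CTCF, and held no match to the motif. A second intronic region 11.28 kb downstream scored 123 and 113 in WT_CTCF and was absent from both MUT_CTCF lists. The region 43.12 kb downstream, at an internal start of Dnmt3a, was called only in WT_CTCF replicate 1, with a score of 47.

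Dnmt3b (chr2:153475186-153513466, plus strand, ENSMUSG00000027478.9), the second de novo enzyme, had 4 regions, and 3 were called in all 4 libraries. Its region 45.25 kb downstream of the 5′ end (chr2:153520024-153520844), 6558 bp beyond the gene in intergenic sequence, was the strongest of all 53. It scored 3037 and 2970 in WT_CTCF and 1965 and 2122 in MUT_CTCF, and its authors' mean was 775.25. Ranked within each library's own list it stood above 99.1%, 99.0%, 99.1% and 99.2% of peaks, in the order of the scores above. Ranks this close to the top leave little room for a difference.

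The region at an internal start of Dnmt3b, 19.40 kb downstream, scored 392 and 488 in WT_CTCF and 164 and 140 in MUT_CTCF. The region 61.40 kb downstream scored 515 and 380 in WT_CTCF and 277 and 358 in MUT_CTCF, so the groups did not overlap, with MUT_CTCF replicate 2 just below WT_CTCF replicate 2. The remaining region, 23.31 kb downstream in an intron, scored 138 and 102 in WT_CTCF, held the 12-letter string and had no MUT_CTCF call.

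Dnmt3l (chr10:77504692-77526367, plus strand, ENSMUSG00000000730.7), the cofactor of the de novo enzymes, had 4 regions, with 3 called in all 4 libraries. All 3 carried a motif without a mismatch, as printed above. The one inside the gene, 1.64 kb downstream, lay in an intron of Dnmt3l and at the 5′ UTR and a coding exon of Aire. The strongest, 13.65 kb upstream, scored 1313 and 1275 in WT_CTCF and 413 and 481 in MUT_CTCF. A neighbour 23.08 kb upstream scored 758 and 698 in WT_CTCF and 429 and 444 in MUT_CTCF. The other region, 16.31 kb upstream, scored 57 and 38 in WT_CTCF and was not called in MUT_CTCF.

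Tet1 (chr10:62267318-62361866, minus strand, ENSMUSG00000047146.8), an oxidising enzyme that embryonic stem cells express, had 12 regions, the most of any of the 8 genes. Peaks were called in 11 and 11 of them in WT_CTCF and in 4 and 3 in MUT_CTCF. Of the 12, 6 were called in both WT_CTCF and neither MUT_CTCF library, and 5 of these 6 held a repeated window printed above. The region 0.47 kb upstream of the 5′ end (chr10:62362082-62362590) scored 125 and 138 in WT_CTCF. That 1.17 kb downstream (chr10:62360516-62360881), in an intron, scored 68 and 114.

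The sixth of these Tet1 regions, in an intron 2.16 kb downstream, scored 101 and 138 in WT_CTCF and held no match to the motif. The intronic region 24.04 kb downstream scored 138 and 177. No MUT_CTCF library had a peak at any of the 3 regions within 3 kb of the annotated 5′ end of Tet1. An intronic region 17.74 kb downstream, at an internal start, scored 688 and 637 in WT_CTCF and 290 and 290 in MUT_CTCF. A region 104.81 kb downstream, near a start of Ccar1, scored 536 and 347 in WT_CTCF and 107 and 128 in MUT_CTCF, and its match to the motif lay 537 bp from the summit, so it does not mark the peak.

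Tet2 (chr3:133126643-133207354, minus strand, ENSMUSG00000040943.7), another oxidising enzyme, had 6 regions. Only the region 7.85 kb upstream of the 5′ end was called in all 4 libraries, with 569 and 537 in WT_CTCF and 225 and 250 in MUT_CTCF. All 5 regions in the gene body lay in introns and had no MUT_CTCF call. Of these, 4 were called in a single WT_CTCF library. The fifth, 41.43 kb downstream, scored 37 and 79 in WT_CTCF.

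Tet3 (chr6:83312367-83391672, minus strand, ENSMUSG00000034832.8) had no region in its 79.3 kb gene body and 2 beyond its 3′ end, both at Bola3 and both called throughout. The one 85.01 kb downstream, in an intron of Bola3 with a motif without a mismatch, scored 1264 and 1084 in WT_CTCF and 533 and 548 in MUT_CTCF. The one 92.36 kb downstream, at the 5′ UTR of Bola3 and with no match to the motif, scored 376 and 489 in WT_CTCF and 141 and 71 in MUT_CTCF. The plot of scores by library shows every region.

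**Figure D2:**
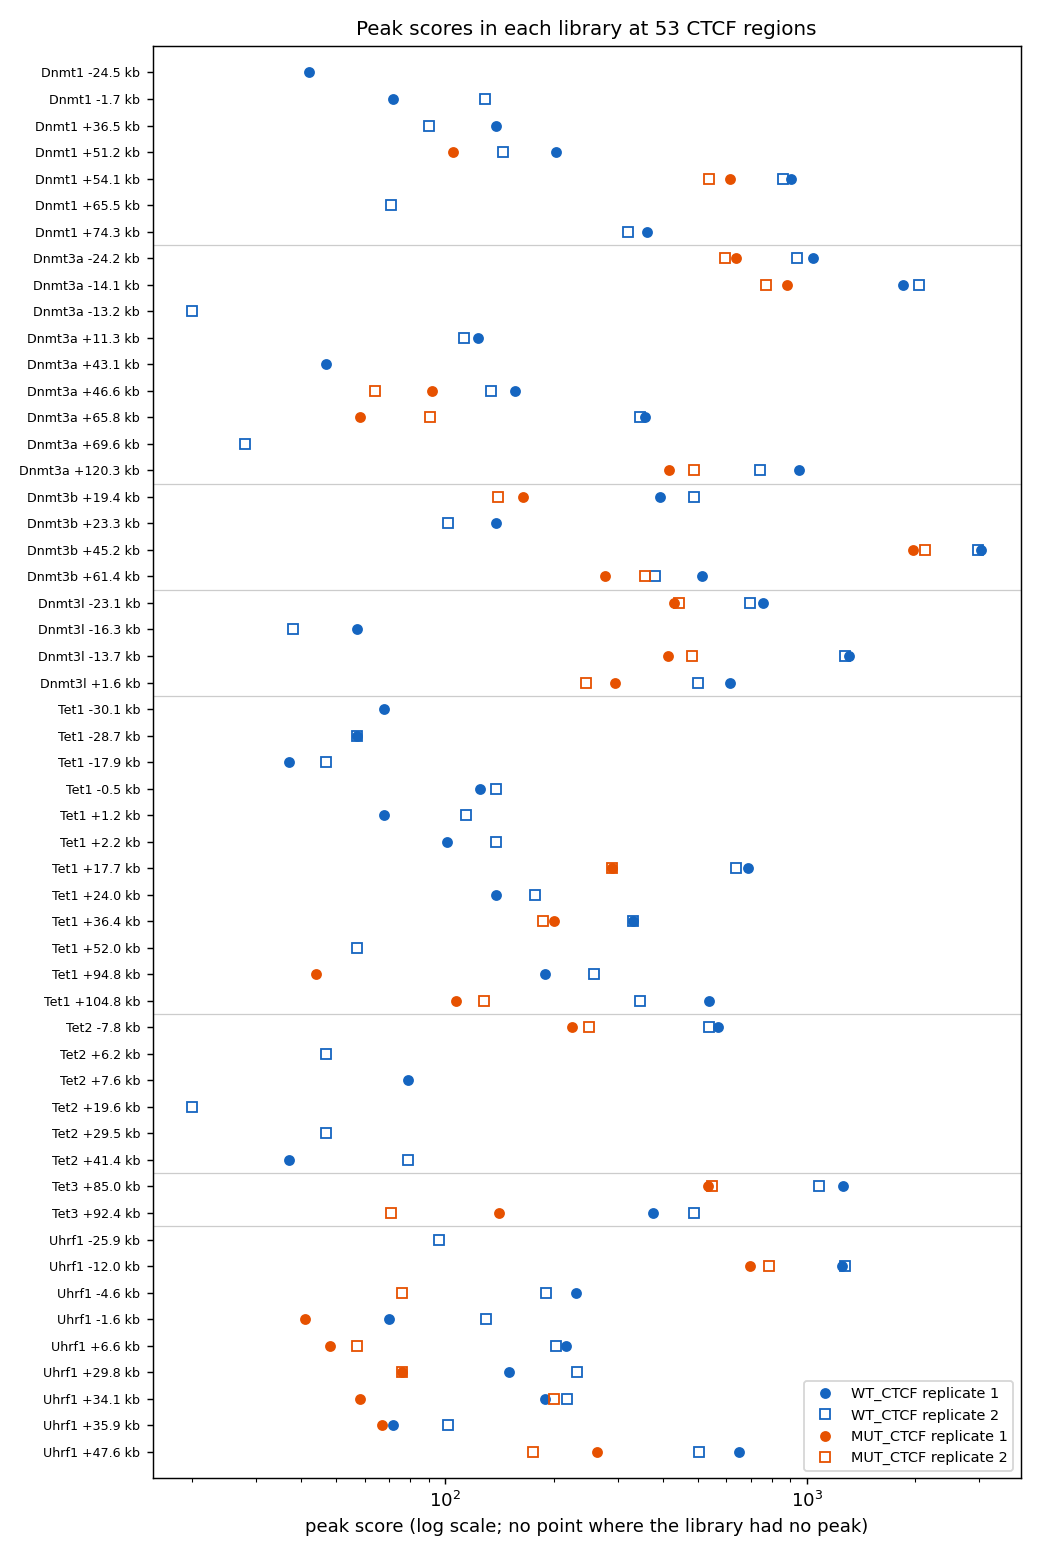
Peak score (horizontal, log scale) of each library at each of the 53 regions, which are named by gene and signed distance of the midpoint from the 5′ end in kb. Blue points are the 2 WT_CTCF libraries, orange points the 2 MUT_CTCF libraries, and a missing point means that the library had no peak there. At 22 of the 23 regions called in all 4 libraries both orange points lie to the left of both blue points.

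Scores were then compared with limma on log2 scores over all 30317 regions called in all 4 libraries, with Benjamini-Hochberg adjustment. Of the 23 regions at the 8 genes, 21 scored lower in MUT_CTCF and 0 higher (adjusted p below 0.05), where 90.8% of all regions scored lower and 0.0396% higher. The difference ran from -2.27 to -0.49 with a median of -1.11, and the median of all regions was -1.18. MUT_CTCF scores were 21.2% to 70.9% of the WT_CTCF scores, with a median of 46.0%. Both MUT_CTCF scores lay below both WT_CTCF scores in 22 of the 23, and in 96.2% of all regions. The 2 that did not pass were the Dnmt3b region 61.40 kb downstream (-0.49 ± 0.25, SE, adjusted p = 0.0805) and the Uhrf1 region 34.09 kb downstream in Kdm4b (-0.91 ± 0.50, SE, adjusted p = 0.103). At the latter, scores were 189 and 217 in WT_CTCF and 58 and 200 in MUT_CTCF, so that the groups overlapped.

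These calls rested on both WT_CTCF libraries. Without WT_CTCF replicate 1, 10 of 23 passed, beside 43.1% of all regions. Without WT_CTCF replicate 2, 0 of 23 and 0 of all 30338 regions did, with a lowest adjusted p of 0.0529 over all regions in limma. In that last fit 18 of the 23 were lower at an unadjusted p below 0.05. All differences at these regions stayed below 0 whichever library was left out.

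Since 90.8% of all regions scored lower, the shift itself was taken out in a second fit. The median log2 score of the regions called in all 4 libraries was subtracted from each library, a shift of -1.21 in the differences, and each region was read relative to that median region. On this scale 2 of the 23 regions were lower and 5 higher in MUT_CTCF, against 8.49% and 10.9% of all regions, and the median was 0.097. The split of 21 lower and 0 higher thus turned into 2 and 5, and centring on the 10% of regions with the highest authors' mean gave 2 and 1. Without WT_CTCF replicate 1 the counts were 0 and 4, without WT_CTCF replicate 2 they were 0 and 1, without MUT_CTCF replicate 1 they were 1 and 4, and without MUT_CTCF replicate 2 they were 2 and 3.

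Of the 5 higher regions, the strongest Dnmt3b region 45.25 kb downstream had the smallest adjusted p. Its score difference relative to the median region was 0.66 ± 0.11 (SE), with a limma adjusted p of 4.8e-06. This call was kept in 12 of 13 alternatives and lost in limma without a trend of spread on level, where its adjusted p was 0.0926. The Dnmt3b region 61.40 kb downstream had 0.72 ± 0.25 (SE, adjusted p = 0.0311), although both its groups came close to each other. Dnmt1, 54.06 kb downstream, had 0.59 ± 0.18 (SE, adjusted p = 0.0128), and Uhrf1, 11.96 kb upstream, had 0.44 ± 0.16 (SE, adjusted p = 0.0374). The last, 24.19 kb upstream of Dnmt3a in the 3′ UTR of Dtnb, had 0.52 ± 0.17 (SE, adjusted p = 0.0228) and was named after its values had been seen.

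The 2 lower regions were the Dnmt3a region 65.83 kb downstream, with -1.06 ± 0.35 (SE, adjusted p = 0.0257), and the Tet3 region 92.36 kb downstream, with -0.89 ± 0.33 (SE, adjusted p = 0.0440). Neither held a match to the motif, and nor did the Dnmt1 region 54.06 kb downstream, which was among the higher regions. In each library's own list the Dnmt3a region ranked above 56.2% and 56.3% of peaks in WT_CTCF and above 11.2% and 19.5% in MUT_CTCF. The MUT_CTCF lists are shorter, so these ranks are set among different peaks. Apart from the Dnmt3b region 45.25 kb downstream, each of these 6 calls was lost in 5 to 8 of its 12 to 14 alternatives.

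**Figure D3:**
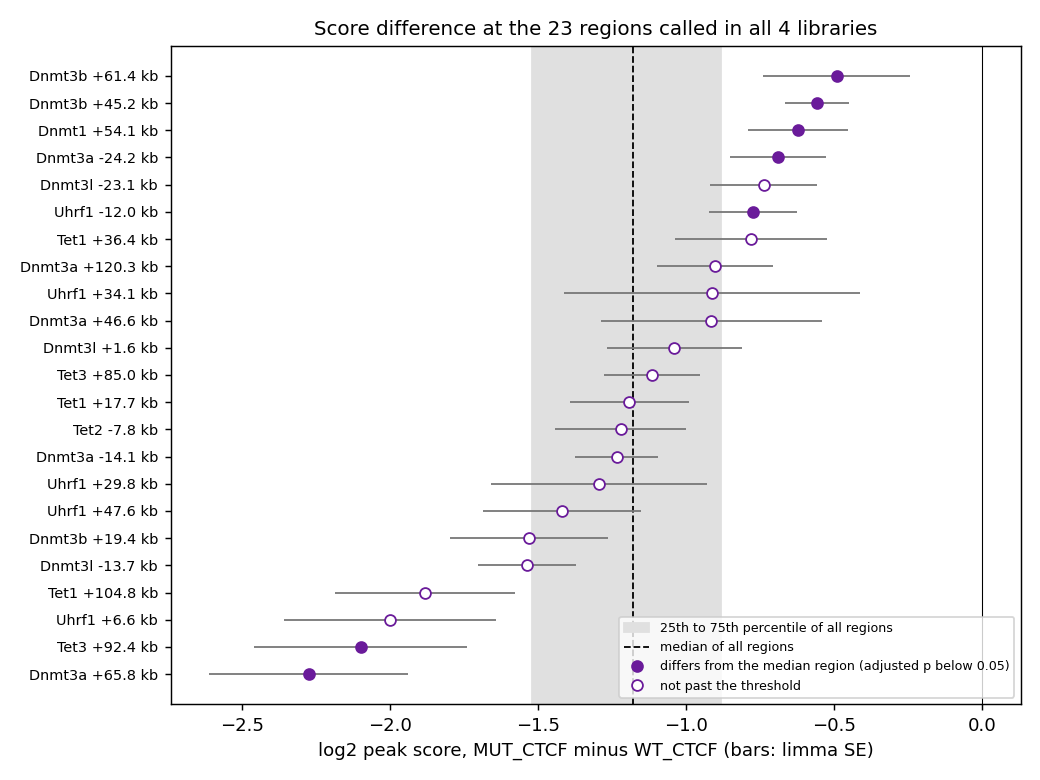
Difference in log2 peak score, MUT_CTCF minus WT_CTCF (horizontal), at the 23 regions called in all 4 libraries, with bars for the limma SE, a grey band for the 25th to 75th percentile of all 30317 regions and a dashed line for their median of -1.18. All points lie below 0, from -2.27 to -0.49, and the 7 filled points differed from the median region, 5 above it and 2 below it.

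At regions called in all 4 libraries, peaks were narrower in MUT_CTCF. The median width over the 23 regions was 526 and 558 bp in the WT_CTCF libraries and 390 and 402 bp in the MUT_CTCF libraries. The means were 542 ± 22.6 bp and 396 ± 8.49 bp (SD, n = 2 each), and an exact two-sided permutation test gave p = 0.333, its smallest value. The difference was -146 bp over the same 23 regions. With all peaks at the 53 regions it was -36.5 bp, but there the WT_CTCF side included regions with no MUT_CTCF peak. Both MUT_CTCF peaks were narrower than both WT_CTCF peaks at 19 of 23 regions, and at 84.8% of all regions. Summits lay a median of 15.0 bp apart between the genotypes (at most 43 bp) beside 7.0 bp between replicates of either genotype (at most 90 bp in WT_CTCF and 33 bp in MUT_CTCF). Without WT_CTCF replicate 1 the median between genotypes was 9.0 bp. Over all regions the median between genotypes was 8.5 bp.

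The 12-letter string was more frequent in the regions lost from the MUT_CTCF lists. It was present in 8 of the 13 regions called in both WT_CTCF libraries alone (61.5%, against 32.1% of all such regions). It was also in 6 of the 12 called in a single WT_CTCF library (50%, against 25.5%). Tet1 alone held 6 of those 13 regions and 5 of the 8 with the string, each of the 5 in a repeated window. Of the 23 regions called in all 4 libraries, 3 held it (13.04%, against 18.4%). Counted the other way, 3 of the 19 regions with the string (15.8%) and 20 of the 34 without it (58.8%) were called in all 4 libraries. Over the whole table these shares were 41.7% and 55.9%, the same order with a smaller gap. Over the 53 regions the string was present in 35.8%, over all regions in 23.3%, beside 4.72% and 2.18% of their control intervals. These are descriptions with no test, and the form was chosen on these sequences.

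**Figure D4:**
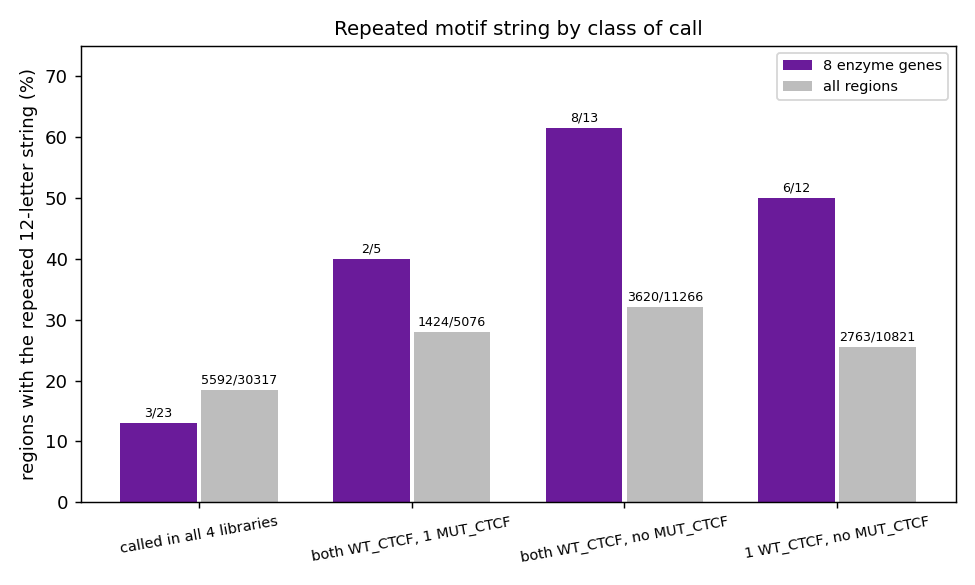
Share of regions with the repeated 12-letter string, in percent from 0 (vertical), for 4 patterns of call (horizontal), with purple bars for the 53 regions at the 8 genes and grey bars for all 57662 regions, and the counts above the bars. Purple bars rise from 13.04% in regions called in all 4 libraries to 61.5% in those called in both WT_CTCF and neither MUT_CTCF library. Of the 8 regions behind the last value, 5 lay at Tet1.

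Copies of the string are common in the genome. The reference held 50577 copies, of which 13996 (27.7%) lay inside one of the 57662 regions. The authors removed reads that aligned to more than one place, and what part this had in the calls at repeated windows was not tested. A short interspersed repeat of the mouse, the B2 element, is known to carry CTCF motifs, but whether these copies lie in B2 elements was not tested. Setting aside the 19 regions with the string, the mean number of regions called differed by -9.5 (MUT_CTCF minus WT_CTCF) over the remaining 34. Of the 34, 5 were called in both WT_CTCF libraries alone. Among all 57662 regions, the string was absent from 44238. Of all 11266 regions called in both WT_CTCF libraries alone, 3620 held it. Without the string, the share called in this way was thus not higher at the 8 genes than over all regions. With every region kept, it was 24.5% against 19.5%. Setting aside the regions with the string was chosen after seeing the data, and this contrast was not tested.

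Cytosines that could be methylated lay within the motif of part of the regions. A CpG was present in the core of 15 of the 37 matches (40.5%, against 35.5% over all regions with a match), and in 9 of the 17 matches of regions called in all 4 libraries (52.9%, against 39.1%).

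The wider pathway gave the background for these genes. A list of 30 other genes of DNA methylation, among them readers of methylated DNA, repair enzymes and enzymes of methyl donor supply, had 165 regions by the same rule, none shared with the 53. Of these, 85 (51.5%) were called in all 4 libraries and 40 (24.2%) in both WT_CTCF and neither MUT_CTCF library. Of the 85, 81 scored lower and 0 higher, with a median of -1.25, and relative to the median region 9 were lower and 10 higher. The string was present in 28.5% of the 165 regions in 32.5% of those 40 and in 29.4% of those 85, beside 61.5% and 13.04% for the same patterns at the 8 genes, a contrast that was not tested.

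Regions of this list with small adjusted p relative to the median region lay at Smug1, which removes uracil from DNA. The strongest Smug1 region (chr15:103012345-103013059) scored 2700 and 3213 in WT_CTCF and 2035 and 1960 in MUT_CTCF, a relative difference of 0.65 ± 0.11 (SE, limma adjusted p = 4.8e-06). Another (chr15:103008478-103009193) scored 942 and 745 against 804 and 697, with 1.05 ± 0.17 (SE, adjusted p = 5.6e-06), and its groups overlapped. The remaining one (chr15:103013338-103014574) scored 1212 and 1553 in WT_CTCF and 304 and 304 in MUT_CTCF, with -0.96 ± 0.19 (SE, adjusted p = 9.1e-05).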

How the data were processed

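CTCF ChIP-seq of WT_CTCF and MUT_CTCF mouse embryonic stem cells comprised 6 samples, 2 ChIP libraries and 1 input per genotype. The sample titles gave the groups and replicate numbers. The 2 inputs are not analysed here. The study describes the 2 libraries of a genotype as biological replicates. The authors' tools, from the submitters' processing notes, were Trim Galore 0.4.4, Bowtie2 2.3.4.1, mm9, MACS2 2.1.1.20160309, deepTools 3.1.1 and DESeq2 1.38.0. The authors removed multiply aligned and duplicate reads, scaled tracks by a Drosophila spike-in and called peaks per library. Each peak in the deposited lists has a start, an end, a summit offset and a score, whose definition and cutoff are not given in the sources used here. The authors' deposited joined table gives a scaled mean signal over the 4 libraries for 57662 regions, which equal the merged lists. Its 5 comparison columns (log2 fold change, its standard error, a statistic, a p-value and an adjusted p) hold the authors' own test and were not used. Per-library read counts were not used here, and counting error could not be given an interval.

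Members and lists were chosen with earlier results of these data known. A region took its highest-scoring peak per library (overlap of at least 1 bp; no member region had more than 1). Scores were compared with limma 3.58.1 (R 4.3.3, empirical Bayes with trend) on log2 score over 30317 regions, as MUT_CTCF minus WT_CTCF, before and after subtracting library medians; the code was tested on simulated data. Library counts and medians were compared by exact permutation. Named regions were, per gene, those within 3000 bp upstream to 1000 bp downstream of a transcription start, the one with the highest mean score, the one with the largest relative difference, and at most 3 called in 1 genotype alone (highest mean score first); from the other pathway genes, at most 5 past the threshold, part of which is not reported here. Sequences were read from the NCBIM37 (mm9) reference. Alternatives changed the overlap, score filter, flank (gene body, 10 kb or 100 kb), model, centring and libraries. The other tools were matplotlib 3.10.9, scipy 1.17.1, pandas 2.3.3, numpy 2.4.6 and Python 3.11.15.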

Additional observations from a re-analysis of the deposited data

How the results depend on the processing

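With 2 libraries per genotype no permutation p can fall below 0.333, and the score measures evidence, not amount. Of 385 recomputed values, those that answer a comparison stayed alike in 89 cases and moved in 40. Alike included the same direction of calls per library and counts within 1.5 times. It also included medians that moved little, even where their sign changed. Single regions kept their side of the threshold in 195 cases and lost their call in 61.

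Regions called in all 4 libraries numbered 11 of 53 with scores at or above 250 and 7 of 21 in gene bodies. Within 10 kb they numbered 13 of 33, and within 100 kb 50 of 105. Those in both WT_CTCF libraries alone numbered 6 of 53 with the score limit, 7 of 21 in gene bodies and 25 of 105 within 100 kb. They numbered 25 of 53 when 1 replicate sufficed, against 38.3% of all regions, and 5 of 34 without the string. Matching shares of all regions for the score limit and the flanks are not given here. Leaving out each library gave 23 to 27 regions called in all remaining libraries and 14 to 21 in WT_CTCF alone. Regions scoring lower numbered 34 of 53 with absent peaks set to a score of 13, where 61.9% of all 57662 regions did. In gene bodies they numbered 7 of 7. The median difference was -0.92 with 50 added, -1.30 with absent peaks filled and -1.17 to -1.01 leaving out each library. The cause was not tested, but gene bodies and filled regions change how many were fitted.

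Relative to the median region, regions lower in MUT_CTCF numbered 0 without a trend, 0 with 50 added, 1 with the mean score of a region's peaks, 1 with reciprocal overlap of 50%, 1 in gene bodies, 0 with quantile normalization and 0 to 2 leaving out each library. Regions higher numbered 0 without a trend, 2 with reciprocal overlap, 0 in gene bodies, 1 when centred on the regions with the highest authors' mean, 1 with quantile normalization and 1 to 4 leaving out each library. The median, 0.097 in the main fit, was 0.31 with absent peaks filled. It was -0.013 without WT_CTCF replicate 2 and -0.032 when centred on the regions with the highest authors' mean, so its sign changed. Summits lay 9.0 bp apart without WT_CTCF replicate 1 (9.0 to 16.0 bp over the 4). The motif was found in 7 regions with no mismatch and 13 in gene bodies. Regions of the other pathway genes numbered 33 in gene bodies and 80 within 10 kb, of which 6 and 24 were called in both WT_CTCF libraries alone.

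The replicate numbers were treated as names only, since same-numbered libraries did not deviate together (r = -0.0033 over all regions). With replicate number as a block 22 regions scored lower, 2 and 5 were lower and higher relative to the median region, and the sign-flip test gave p = 0.5 (exact) for the calls per library and the width.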
